A study of Mus musculus with 6 samples.

Results

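The core interferon-stimulated genes were followed in M-MDSCs, the monocytic kind of myeloid-derived suppressor cell, which are immature cells of the monocyte lineage that restrain T cells. The set comprised 10 genes, Ifit1, Ifit2, Ifit3, Isg15, Usp18, Mx1, Mx2, Rsad2, Ifi44 and Rtp4. They were chosen by name, as the probes whose gene name on the array equals one of these symbols. This gave 11 probes, since Isg15 has 2, and all 10 genes were among the 22097 genes tested.

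Lung M-MDSCs and bone marrow M-MDSCs had been isolated by flow cytometry from C57BL/6 mice. The treated animals were given azacytidine, which inhibits DNA methyltransferases, along with entinostat, which inhibits class I histone deacetylases, and each treated RNA was a pool of 3 to 6 mice. Mock mice, for which an age of 6 to 8 weeks is given, had received the vehicle, and each mock RNA came from 1 to 2 mice. Each of the 6 dual-colour arrays paired a treated RNA in Cy5 with a mock RNA in Cy3 of the same tissue, and each tissue had 3 arrays, called biological replicates in the labels. No array had the dyes exchanged, so treatment and dye cannot be told apart. The lung arrays shared one slide and the marrow arrays another, so slide and tissue cannot be told apart.

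Type I interferons are cytokines made on viral infection, and they signal through the receptor chains IFNAR1 and IFNAR2 and the kinases JAK1 and TYK2 to a transcription factor complex, ISGF3, which holds STAT2 and IRF9. This complex binds a DNA element called the interferon-stimulated response element in the promoters of its target genes. The 10 genes are among its best known targets, and most encode antiviral effectors. In myeloid cells they are widely read as a signature of interferon exposure.

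The response element holds a pair of GAAA tetramers with 2 bases between them. RefSeq promoter windows (build GRCm38.p6, from 250 bases before to 50 bases after each annotated start) were searched for GAAA, any 2 bases, GAAA, on both strands. The pattern was present in 3.44% of 32851 windows and in the windows of 3.99% of 27025 genes. Of the 10 genes, 6 had an entry and 4 of these held the pattern. Mx1, Mx2, Usp18 and Rtp4 are named only. The stretches that hold it are shown because these are the letters of the element through which the pathway acts on its targets. Capitals mark the pattern, which reads as TTTC, 2 bases, TTTC where it lies on the opposite strand, and each stretch is written 5′ to 3′ on the strand of its gene.
Ifit1, chr19:34640770-34640828, plus strand: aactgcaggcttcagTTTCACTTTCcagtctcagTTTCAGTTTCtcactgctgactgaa
Ifit3, chr19:34583358-34583431, plus strand: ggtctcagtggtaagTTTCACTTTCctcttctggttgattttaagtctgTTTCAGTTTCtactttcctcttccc
Isg15, chr4:156200860-156200911, minus strand: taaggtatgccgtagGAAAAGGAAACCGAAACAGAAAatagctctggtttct
Rsad2, chr12:26456548-26456587, minus strand: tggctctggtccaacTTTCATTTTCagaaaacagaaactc
In Ifit1 the pattern occurred 2 times, at positions -104 and -85 from the start, and in Ifit3 2 times, at -156 and -122. In Isg15 it occurred 3 times in overlapping copies at -78, -72 and -66, and in Rsad2 once, at -120. The window of Ifi44 and both windows of Ifit2 held no match to these letters. A match describes the sequence and does not show that a factor binds there.

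All 11 probes were well above background on all 6 arrays in both channels, and none was saturated. The median raw signal of an array was between 107.1 and 151.8 intensity units in the treated channel and between 71.6 and 100.9 in the mock channel, and precision is limited by how many arrays there are. Bone marrow replicate 1 and lung replicate 2 stood apart in the Cy5 background: after correction the 153 negative control spots had a median of 290.3 and 137 units there, against 63.3 to 66 on the other arrays. In Cy3 the same arrays were the highest as well, at 102.7 and 75.75 units, against 58.35 to 71.45 on the others. The part of this background in the ratios was not tested. The sorted cells carried monocyte markers in every group, with 8 of 8 well above background on every array. The 5 neutrophil markers tested were also well above background on every array of each group, so these counts do not set monocytes apart. The summed log2 level of the monocyte markers was between 17.25 and 17.46 in treated lung, 16.97 and 17.22 in mock lung, 17.13 and 17.36 in treated marrow, and 17.17 and 17.27 in mock marrow. Ly6c1 and Csf1r had the highest mean levels of the 8 in every group. Like sums do not mean that single markers stayed level. With treatment 2 of the 8 were higher and 3 lower in lung, and 1 was higher and 4 lower in marrow.

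The first comparison asked how the genes differed between treated and mock cells of the lung. In treated lung M-MDSCs 9 of the 10 genes were lower than in mock lung M-MDSCs, by 1.71-fold for Mx1 to 2.76-fold for Rtp4, and none was higher. Among all genes tested 14.0% were lower in treated lung. The median log2 ratio of the 10 genes was -0.98, against 0.01 for all genes. Rsad2 alone did not pass. In treated bone marrow M-MDSCs 4 of the 10 were lower than in mock cells (Rtp4, Mx2, Usp18 and Ifit3), where 7.14% of all genes tested were lower, and none was higher. The median of the 10 in marrow was -0.38, against 0.02 for all genes. The same 4 genes were lower in both tissues, and 2.97% of all genes were. Ratios are log2 of treated over mock throughout, following the dyes in the labels. The headings of the authors' deposited matrix name mock over treated, but its columns correlated with Cy5 over Cy3 at 0.986 to 0.997. The RNA came from bulk cells, so fewer cells of a type and less RNA per cell cannot be told apart. Adjusted p-values are from limma, Benjamini-Hochberg over all genes.

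**Figure D1:**
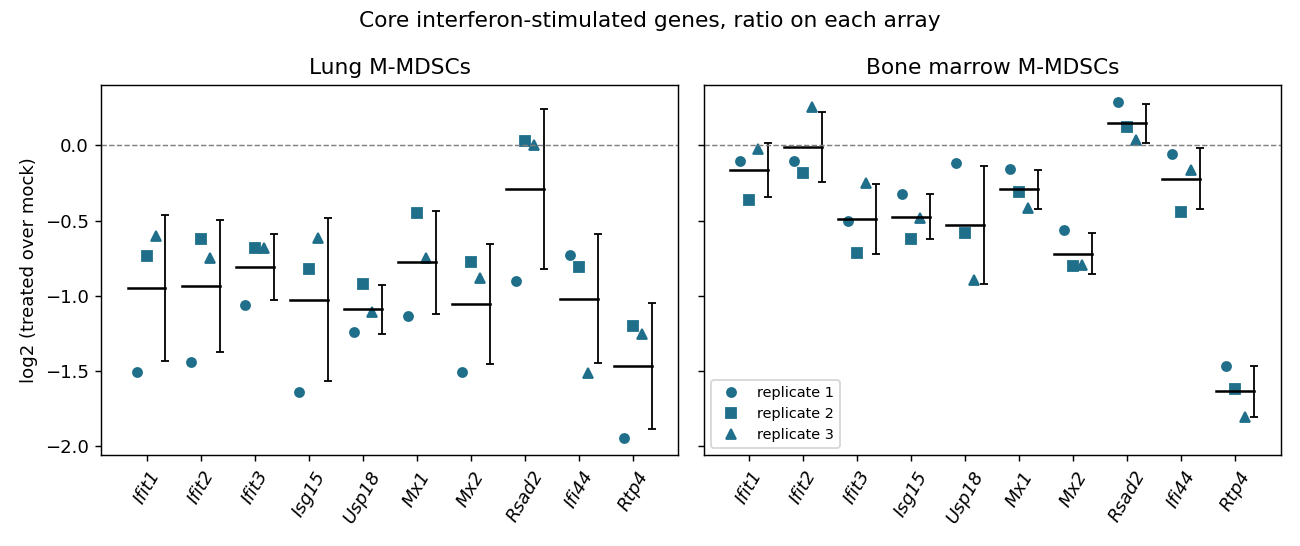
Log2 ratio of treated over mock on each array for the 10 genes, with lung on the left and bone marrow on the right. Symbols are replicates, horizontal bars are means and error bars are 1 SD (n = 3 arrays per tissue). The lung means of 9 genes lie between -1.47 and -0.78, and lung replicate 1 is the lowest lung array for 9 of the 10 genes.

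The IFIT proteins bind viral RNA and block its translation. Ifit1, whose product recognises RNA caps that lack 2′-O methylation, had log2 ratios of -1.51, -0.73 and -0.60 on lung replicates 1 to 3, against -0.10, -0.36 and -0.02 on the marrow replicates. All lung arrays lay below all marrow arrays. In lung Ifit1 was 1.93-fold lower in treated cells, with a log2 ratio of -0.95 ± 0.49 (SD, n = 3) and an adjusted p of 0.00397 by limma. In marrow its ratio of -0.16 ± 0.18 (n = 3) did not pass, with an adjusted p of 0.526 by limma.

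Ifit2, an IFIT that limits viral spread and has been tied to cell death, had ratios of -1.44, -0.62 and -0.75 in lung, against -0.11, -0.18 and 0.25 in marrow. The groups did not overlap, and the marrow arrays fell on both sides of 0. The mean was -0.94 ± 0.44 in lung (n = 3, limma adjusted p = 0.00359) and -0.01 ± 0.23 in marrow (n = 3, limma adjusted p = 0.972). Ifit3, which binds and stabilises Ifit1 in the human complex, had ratios of -1.06, -0.68 and -0.68 in lung, against -0.50, -0.71 and -0.25 in marrow. Its tissues overlapped, and all 6 arrays lay below 0. Ifit3 passed in both tissues, at -0.81 ± 0.22 in lung (limma adjusted p = 0.00147) and -0.49 ± 0.23 in marrow (limma adjusted p = 0.0281). The probe of Ifit3 was not checked against its near-identical copy Ifit3b, so its signal may be shared between them.

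Isg15 encodes a ubiquitin-like modifier that is joined to proteins, and Usp18 encodes the protease that removes it and also blocks signalling at the receptor chain IFNAR2. Isg15 had ratios of -1.64, -0.82 and -0.62 in lung, against -0.32, -0.62 and -0.48 in marrow. All 6 arrays were below 0, and the tissues met at the top of the lung values. Isg15 was 2.04-fold lower in treated lung (log2 -1.03 ± 0.54, n = 3, limma adjusted p = 0.00382), and in marrow its ratio of -0.47 ± 0.15 had a limma adjusted p of 0.106. Its other probe had ratios of -1.43, -0.64 and -0.59 in lung, against 0.02, -0.17 and -0.19 in marrow. That probe also passed in lung (-0.89 ± 0.47, limma adjusted p = 0.00374), but lay closer to 0 in marrow (-0.11 ± 0.11, limma adjusted p = 0.650). Usp18 had ratios of -1.24, -0.92 and -1.11 in lung, against -0.11, -0.58 and -0.89 in marrow. Every lung array lay below every marrow array, by a narrow margin. Its mean was -1.09 ± 0.16 in lung (limma adjusted p = 0.00109) and -0.53 ± 0.39 in marrow (limma adjusted p = 0.0431).

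Mx1 and Mx2 encode dynamin-like GTPases that trap viral components. In RefSeq both mouse genes are listed as transcribed pseudogenes, and the probes measure their transcripts only. Mx1 had ratios of -1.13, -0.45 and -0.75 in lung, against -0.16, -0.31 and -0.41 in marrow. The lung arrays lay below the marrow arrays without overlap, by a narrow margin. The mean of Mx1 was -0.78 ± 0.34 in lung (limma adjusted p = 0.00267) and -0.29 ± 0.13 in marrow (limma adjusted p = 0.140). Mx2 had ratios of -1.51, -0.78 and -0.88 in lung, against -0.56, -0.80 and -0.79 in marrow. Mx2 was lower in treated cells on all 6 arrays, and its tissues overlapped. It passed in both, at -1.05 ± 0.40 in lung (limma adjusted p = 0.00120) and -0.72 ± 0.14 in marrow (limma adjusted p = 0.0165).

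Rsad2 encodes viperin, an enzyme that makes a chain-terminating ribonucleotide. It had ratios of -0.90, 0.03 and 0.00 in lung, against 0.29, 0.12 and 0.03 in marrow. Only lung replicate 1 was clearly below 0, and the 3 marrow arrays were above 0. Rsad2 was the one gene that passed in neither tissue, with -0.29 ± 0.53 in lung (limma adjusted p = 0.237, 95% interval -0.69 to 0.11) and 0.15 ± 0.13 in marrow (limma adjusted p = 0.589, 95% interval -0.25 to 0.55). Without lung replicate 1 its lung ratio was 0.02.

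Ifi44 encodes a cytoplasmic protein induced in viral infection. It had ratios of -0.73, -0.81 and -1.51 in lung, against -0.05, -0.44 and -0.16 in marrow. It was the gene whose lowest lung ratio fell on replicate 3, while the lowest ratio of the other 9 fell on replicate 1. Its mean was -1.02 ± 0.43 in lung (limma adjusted p = 0.00216) and -0.22 ± 0.20 in marrow (limma adjusted p = 0.349). Ifi44 was dim in marrow, and with the scanner's processed signals its marrow ratio was -0.48. Rtp4, a transporter protein described as a chaperone of opioid receptors, had ratios of -1.95, -1.20 and -1.26 in lung, against -1.47, -1.62 and -1.81 in marrow. It was the lowest of the 10 genes on 5 of the 6 arrays. Its mean was -1.47 ± 0.42 in lung (limma adjusted p = 0.000409) and -1.63 ± 0.17 in marrow, a 3.1-fold lower signal (limma adjusted p = 0.00166). In marrow only 3 genes of all those tested had a lower ratio than Rtp4, and in lung it stood at place 43 from the lowest.

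**Figure D2:**
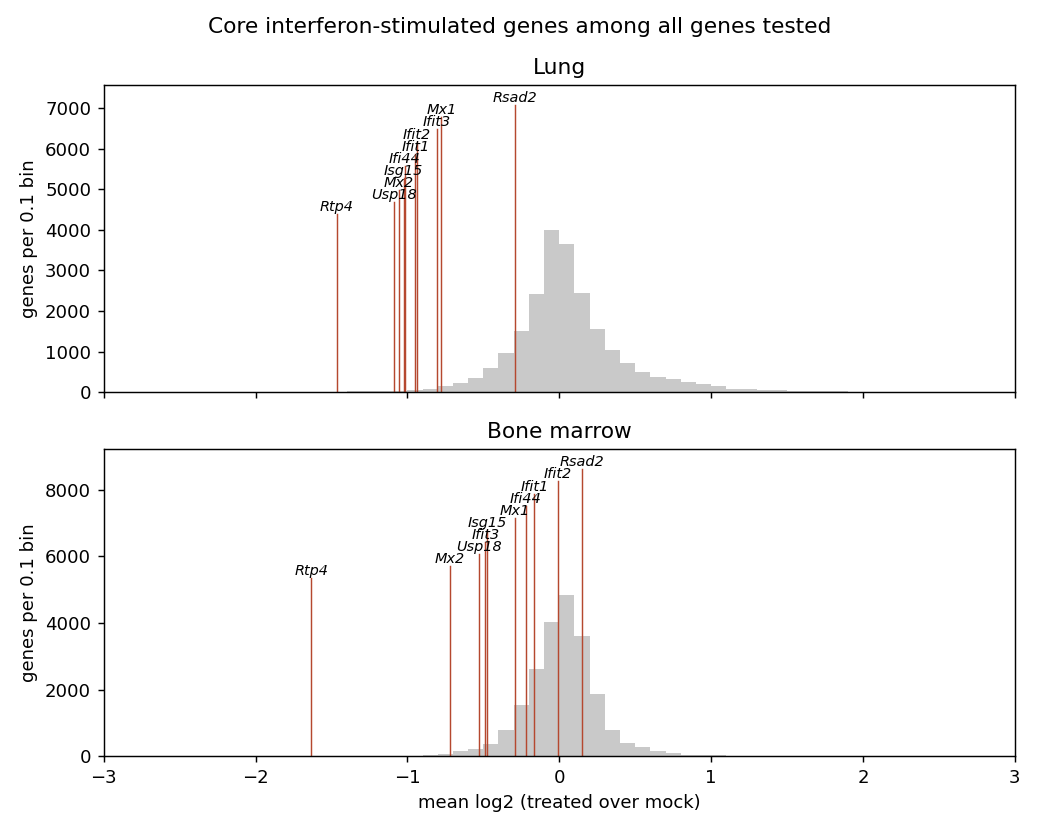
Distribution of the mean log2 ratio of treated over mock over all 22097 genes tested (grey, genes per bin), with the 10 genes as vertical lines, lung above and bone marrow below. Rtp4 lies at -1.47 in lung and -1.63 in marrow, far into the lower tail, while Rsad2 lies at -0.29 in lung and 0.15 in marrow. The height of a line has no meaning.

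Lung replicate 1 had the lowest lung ratio for every gene except Ifi44. The median of the 10 genes was -1.34 on that array, -0.75 on lung replicate 2 and -0.75 on lung replicate 3, against -0.13, -0.51 and -0.33 on the marrow arrays. Without lung replicate 1 the lung median was -0.70 and 9 of the 10 genes were still lower. The marrow count rested on few arrays. It was 2 without marrow replicate 1, 1 without marrow replicate 2 and 2 without marrow replicate 3, and Rtp4 was the gene that passed in each of these. Mx2 passed in none of them, and Usp18 was at -0.35 without marrow replicate 3. The marrow count was 6 without lung replicate 1, when Isg15 and Mx1 passed as well, since all arrays share the estimate of the spread. Usp18 in marrow did not pass without lung replicate 2 or 3 (limma adjusted p = 0.0678 and 0.0570). With a separate fit of each tissue the count stayed at 4, but Usp18 did not pass (limma adjusted p = 0.0575) and Isg15 did (limma adjusted p = 0.0170). With each array centred on its median in place of loess, Usp18 alone passed in lung (-0.88, limma adjusted p = 0.0360) and none passed in marrow. All 10 lung ratios then stayed below 0, with a median of -0.75. In marrow 5 of the 10 were then below 0, and the median was -0.05. That setting set the median of all genes at 0.12 in lung and 0.20 in marrow, and relative to it the members' medians were -0.87 in lung and -0.25 in marrow.

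The next comparison asked whether the change differed between lung and marrow. The ratio was lower in lung than in marrow for 9 of the 10 genes, Rtp4 being the exception at 0.17 (95% interval -0.31 to 0.64). The difference passed for 2 genes, Ifit2 and Ifi44, where 5.46% of all genes tested were lower. For Ifit2 the difference was -0.92 (95% interval -1.44 to -0.41, limma adjusted p = 0.0325), and for Ifi44 it was -0.80 (95% interval -1.30 to -0.30, limma adjusted p = 0.0458). Ifit1 followed at -0.78 with a limma adjusted p of 0.0595, and the other probe of Isg15 gave -0.78 with a limma adjusted p of 0.0492. Every lung array lay below every marrow array for 6 of the 10 genes, Ifit1, Ifit2, Usp18, Mx1, Rsad2 and Ifi44, as for 18.7% of the 22091 genes with a ratio on all 6 arrays. For Rsad2, Usp18 and Mx1 the margin was narrow. On lung replicate 2 and marrow replicate 3 Rsad2 had 0.0302 and 0.0343, Usp18 -0.919 and -0.893, and Mx1 -0.450 and -0.413. The calls of Ifit2 and Ifi44 depended on single arrays. Ifit2 did not pass when any marrow replicate was left out, and Ifi44 passed only with all 6 arrays or without lung replicate 1, so that none of the 10 passed without marrow replicate 1 or 2. Ifit1 passed without lung replicate 1, at -0.50, and without lung replicate 3, at -0.96. Usp18 passed without marrow replicate 3, at -0.74, and Mx1 without lung replicate 2, at -0.65.

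Levels in each channel were compared next, as log2 intensities and within a probe only. In mock cells 9 of the 10 genes were higher in lung than in marrow, where 29.6% of all genes tested were, and the median difference was 1.22 against -0.04 for all genes. Mock lung was the highest of the 4 groups for all 10 genes. In treated cells 6 of the 10 were higher in lung than in marrow (Rsad2, Ifit3, Isg15, Ifit1, Ifi44 and Mx2), where 28.4% of all genes tested were, and the median difference was 0.58. Treated marrow was the lowest group for 8 genes, treated lung for Mx1 and mock marrow for Rsad2. Markers of other cells differed between the tissues too. Macrophage markers were higher in lung than in marrow for 7 of 7 genes in treated cells (median log2 difference 5.95) and in mock cells (3.49). In treated cells 4 of 5 epithelial, 5 of 5 endothelial, 2 of 4 B cell and 4 of 5 T and NK cell markers were higher in lung, and in mock cells 4 of 5, 4 of 5, 4 of 4 and 5 of 5. Neutrophil markers were lower in lung for 4 of 5 genes, with a median of -3.05 in treated and -4.58 in mock cells. Their part in the differences between tissues was not tested.

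**Figure D3:**
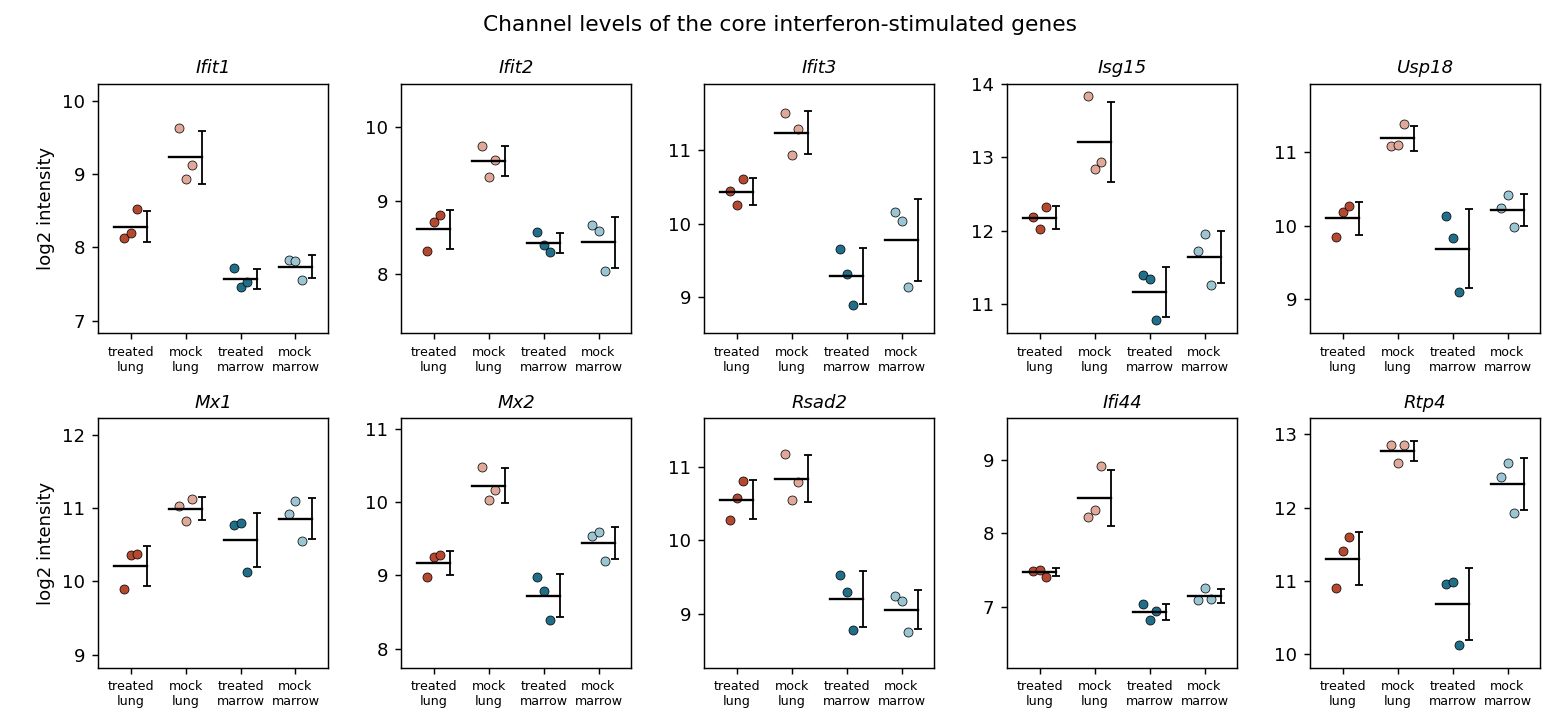
Log2 intensity of the 10 genes in treated lung, mock lung, treated marrow and mock marrow, with 1 point per array, the mean as a horizontal bar and 1 SD as error bar (n = 3 per group). Every panel spans the same range of log2 units. Mock lung has the highest mean in every panel, and Rsad2 is split by tissue and not by treatment.

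For Ifi44 the levels were 7.49, 7.50 and 7.41 in treated lung, against 8.22, 8.31 and 8.92 in mock lung. In treated marrow they were 7.03, 6.81 and 6.94, against 7.08, 7.25 and 7.10 in mock marrow. The 4 groups did not overlap with their neighbours in the order mock lung, treated lung, mock marrow, treated marrow. Ifi44 was higher in mock lung than in mock marrow by 1.34 (limma adjusted p = 0.000274) and higher in treated lung than in treated marrow by 0.54 (limma adjusted p = 0.00111). With the scanner's processed signals these differences were 2.47 in mock cells and 1.45 in treated cells.

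For Ifit2 the levels were 8.31, 8.71 and 8.80 in treated lung, against 9.75, 9.33 and 9.55 in mock lung. They were 8.57, 8.40 and 8.29 in treated marrow, against 8.67, 8.58 and 8.04 in mock marrow. Mock lung stood apart, and the other 3 groups overlapped in neighbouring pairs. The difference between tissues was 1.11 in mock cells (limma adjusted p = 0.000853) and 0.19 in treated cells (limma adjusted p = 0.286).

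Rsad2 was ordered by tissue. Its levels were 10.27, 10.58 and 10.80 in treated lung, against 11.17, 10.55 and 10.80 in mock lung, and these overlapped. They were 9.53, 9.30 and 8.78 in treated marrow, against 9.24, 9.18 and 8.75 in mock marrow, and these overlapped as well. Rsad2 was higher in lung by 1.79 in mock cells (limma adjusted p = 7.27e-05) and by 1.35 in treated cells (limma adjusted p = 0.000841).

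Rtp4 was ordered by treatment. Its levels were 10.90, 11.41 and 11.60 in treated lung, against 12.85, 12.61 and 12.85 in mock lung. They were 10.95, 10.99 and 10.12 in treated marrow, against 12.42, 12.61 and 11.93 in mock marrow. Treated and mock cells did not overlap in either tissue, while the tissues overlapped within each treatment. The difference between tissues was 0.45 in mock cells (limma adjusted p = 0.0454), and without marrow replicate 3 it was 0.25 and did not pass. In treated cells it was 0.61 (limma adjusted p = 0.0764).

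Isg15 averaged 12.18 ± 0.15 in treated lung and 13.20 ± 0.54 in mock lung, and 11.17 ± 0.34 in treated marrow and 11.64 ± 0.35 in mock marrow (SD, n = 3 each). Mock lung, treated lung and mock marrow were apart from each other, while mock and treated marrow overlapped. Ifit1 and Ifit3 had the same order with the same overlap. Their means were 8.28 ± 0.21 in treated lung and 9.23 ± 0.36 in mock lung for Ifit1, against 7.57 ± 0.14 in treated marrow and 7.73 ± 0.16 in mock marrow. For Ifit3 they were 10.43 ± 0.18 in treated lung and 11.24 ± 0.29 in mock lung, against 9.29 ± 0.39 in treated marrow and 9.77 ± 0.56 in mock marrow. These 3 genes were therefore higher in lung than in marrow in both channels. The differences were 1.01, 0.71 and 1.15 in treated cells and 1.56, 1.50 and 1.47 in mock cells for Isg15, Ifit1 and Ifit3, each passing the limma threshold. With processed signals the Ifit1 difference in treated cells was 1.23.

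In Usp18, Mx2 and Mx1 mock marrow stood above treated lung. Usp18 averaged 10.10 ± 0.23 in treated lung and 11.19 ± 0.17 in mock lung, against 9.69 ± 0.54 in treated marrow and 10.22 ± 0.22 in mock marrow. Mx2 averaged 9.17 ± 0.17 in treated lung and 10.22 ± 0.24 in mock lung, against 8.72 ± 0.30 in treated marrow and 9.44 ± 0.22 in mock marrow. For both, mock lung was apart from mock marrow, and mock marrow overlapped with treated lung. Mx2 was higher in treated lung than in treated marrow by 0.45 (limma adjusted p = 0.0406), and without marrow replicate 3 this was 0.28 and did not pass. Mx1 averaged 10.21 ± 0.27 in treated lung and 10.99 ± 0.16 in mock lung, against 10.56 ± 0.37 in treated marrow and 10.85 ± 0.28 in mock marrow. Mx1 was the gene that did not differ between tissues beyond the threshold in either channel, at -0.35 in treated cells (95% interval -0.83 to 0.13) and 0.13 in mock cells (95% interval -0.21 to 0.47), and neighbouring groups overlapped throughout. Without marrow replicate 3 it passed in treated cells, at -0.57 (limma adjusted p = 0.0140).

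Lists of other pathway genes were set beside the 10. Of all 22097 genes tested, 3100 (14.0%) were lower and 4410 higher in treated lung. In treated marrow 1577 (7.14%) were lower and 1603 higher. Of 31 other interferon-stimulated genes tested, 26 were lower in treated lung and 22 in treated marrow, and none was higher in either tissue. Their medians were -0.67 in lung and -0.58 in marrow, against -0.98 and -0.38 for the 10 genes. The marrow count was 17, 12 and 14 without marrow replicate 1, 2 and 3, and the lung count stayed between 24 and 27 without any 1 array. With median centring 1 of the 31 passed in lung and 0 in marrow, and their medians were -0.43 in lung and -0.12 in marrow. In lung the genes with the smallest p were Nmi, which binds STAT proteins (-1.10 ± 0.19), the pro-apoptotic Xaf1 (-1.18 ± 0.29) and Parp9, an ADP-ribosyltransferase partner (-0.70 ± 0.13). In marrow they were Oasl2, of the oligoadenylate synthetase family (-1.15 ± 0.19), Samd9l, a restriction factor (-0.66 ± 0.03), and Oas2, whose product makes the activator of RNase L (-1.05 ± 0.13).

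Of the 9 receptor and signalling genes, 3 were lower and 1 higher in treated lung, and 5 were lower in treated marrow. The marrow count was 3, 2 and 1 without marrow replicate 1, 2 and 3, and 3 without lung replicate 2. With median centring 0 of the 9 passed in either tissue. The list's median was -0.16 in lung and -0.34 in marrow, and under median centring it was 0.06 in both. Of the ISGF3 components, Stat2 and Irf9 were lower in both tissues. Stat2 had -0.60 ± 0.21 in lung (limma adjusted p = 0.00170) and -0.45 ± 0.04 in marrow (limma adjusted p = 0.0163), and Irf9 had -0.38 ± 0.10 in lung (limma adjusted p = 0.00505) and -0.79 ± 0.11 in marrow (limma adjusted p = 0.00162). Ifnar1, a receptor chain, was higher in treated lung at 0.71 ± 0.10 (limma adjusted p = 0.00588). Irf7, the regulator that amplifies interferon production, was lower in both tissues, at -0.74 ± 0.25 in lung (limma adjusted p = 0.00721) and -0.70 ± 0.39 in marrow (limma adjusted p = 0.0229).

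Of the 4 enzymes of ISG15 conjugation, 2 were lower and 1 was higher in each tissue. Uba7, the activating enzyme of ISG15, had -0.59 ± 0.09 in lung and -0.50 ± 0.04 in marrow, and Herc6, a mouse ISG15 ligase, had -0.84 ± 0.21 in lung and -0.54 ± 0.21 in marrow. Trim25, a ubiquitin and ISG15 ligase, was higher in both, at 0.85 ± 0.23 in lung and 0.58 ± 0.21 in marrow. Of the 3 relatives of the IFIT genes, Ifit3b (-0.86 ± 0.18) and Ifit1bl1 (-0.53 ± 0.22) were lower and Ifit1bl2 (0.48 ± 0.13) was higher in treated lung. In marrow Ifit1bl2 alone passed, at 0.33 ± 0.13. With median centring none of these 7 genes passed in either tissue. Without marrow replicate 1, 2 and 3 the marrow counts of the 4 enzymes were 1, 1 and 2 lower and 0, 1 and 0 higher. For the 3 relatives in marrow, 0 passed without marrow replicate 1 or 2 or lung replicate 2, and 2 were higher without lung replicate 1.

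Of 6 feedback inhibitors other than Usp18, 2 were higher and 2 lower in treated lung, where 4410 of all 22097 genes were higher and 3100 lower. Beside such shares, counts of 1 or 2 genes in a short list are a description only. Socs3 was higher there at 0.92 ± 0.26, Ptpn11 was higher at 0.32 ± 0.04, and Socs1 was lower at -0.73 ± 0.47. In marrow the phosphatase gene Ptpn6 alone passed, at -0.62 ± 0.35. Of 11 genes known chiefly as responders to interferon gamma, 6 were lower and 1 higher in treated lung, among them the GTPases Igtp (-0.82 ± 0.19), Gbp5 (-1.004 ± 0.31) and Irgm1 (-0.65 ± 0.20). In marrow 2 were lower, Ciita (-0.58 ± 0.29) and Irgm1 (-0.44 ± 0.21), and the chemokine gene Cxcl10 was higher at 0.85 ± 0.17. Of the interferon genes themselves 7 of 12 on the list were tested. In treated lung Ifnl3 was higher at 0.43 ± 0.13 and Ifnk lower at -0.32 ± 0.23, and Ifnb1 had -0.72 ± 1.09 and did not pass. In marrow none of the 7 passed, but Ifnb1, Ifna2, Ifna5, Ifnk and Ifng were not well above background on any mock marrow array. Several of these counts changed when 1 array was left out. In lung, 0, 1 and 1 feedback inhibitors were lower without lung replicate 1, 2 and 3, 1 was lower without marrow replicate 2 and 3 were lower without marrow replicate 3. No interferon gamma responder was higher in lung without lung replicate 2 or 3, and no interferon gene was lower there without lung replicate 1. In marrow, 1, 0 and 0 interferon gamma responders were lower and none was higher without marrow replicate 1, 2 and 3. None was higher without lung replicate 2, and 3 were lower and 3 higher without lung replicate 1. No feedback inhibitor passed in marrow without marrow replicate 1. With median centring 1 gene of these 3 lists passed, a feedback inhibitor that was higher in treated lung.

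**Figure D4:**
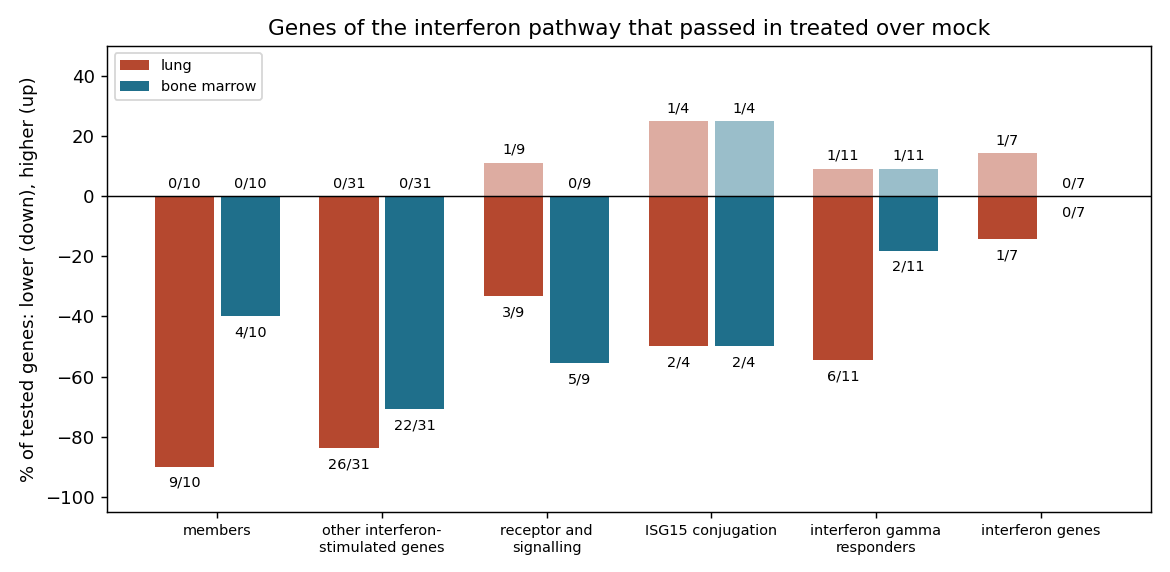
Share of the tested genes of each list, in percent, that were lower (downward bars) or higher (upward, pale bars) in treated than in mock cells, with lung left of bone marrow and the counts printed at each bar. The 10 genes of the set are labelled members. For them and the 31 other interferon-stimulated genes no bar points up.

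The genes whose pattern was most like that of the 10 were sought by Pearson correlation over the 12 channel values (6 arrays with 2 channels) with the mean of the set. Both channels of an array share its hybridisation, and the values differ by tissue, so the coefficient is a description. Outside the set Xaf1 (0.972), Casp4 (0.972), Ifit3b (0.971), Daxx (0.968), Cd40 (0.968), Parp9 (0.963), Gm9706 (0.963) and Igtp (0.961) were the most alike. Casp4 had log2 ratios of -0.93 in lung and -0.57 in marrow, Daxx -0.85 in lung and -0.56 in marrow, and Cd40 -0.96 in lung and -0.74 in marrow, each passing in both tissues. Xaf1 and Parp9 were lower in both tissues as well. Ifit3b, Gm9706 and Igtp were lower in lung but did not pass in marrow (limma adjusted p = 0.128, 0.0841 and 0.217). Within the set the coefficient was highest for Isg15 (0.965) and lowest for Mx1 (0.558), with Rsad2 at 0.826 and Rtp4 at 0.825. These within-set values include the gene itself in the mean.

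Markers of other cells moved with treatment in lung. Macrophage markers were higher in treated lung for 7 of 7 genes, with a summed log2 level between 16.37 and 16.80 in treated lung and between 14.15 and 14.70 in mock lung. Their sum was between 11.46 and 11.92 in treated marrow and between 11.53 and 11.67 in mock marrow, where none of the 7 passed and Mertk was not well above background on any array. Epithelial markers were higher in treated lung for 4 of 5 genes (15.69 to 16.31 in treated lung, 13.75 to 14.66 in mock lung), and endothelial markers for 5 of 5 (13.51 to 13.88 in treated lung, 11.98 to 12.60 in mock lung). In marrow, epithelial sums were 8.90 to 9.04 in treated and 8.97 to 9.04 in mock cells, with Sftpa1, Sftpc and Sftpd not well above background on any array. Endothelial sums were 9.35 to 9.46 in treated and 9.27 to 9.30 in mock marrow, with Cdh5, Ramp2 and Tek not well above background on any array. B cell markers were lower in treated lung for 4 of 4 genes tested (10.43 to 10.72 in treated lung, 11.57 to 12.28 in mock lung), and were 10.04 to 10.40 in treated and 10.11 to 10.33 in mock marrow, with Ms4a1 not well above background on any marrow array. T and NK cell markers were lower in treated lung for 3 of 5 genes (10.65 to 10.99 in treated lung, 11.43 to 11.60 in mock lung), and none passed in marrow (9.78 to 9.86 in treated, 9.61 to 9.70 in mock cells). Their part in the lower values of the 10 genes was not tested.

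Plasmacytoid dendritic cells, which make type I interferon, were followed by 6 markers. In treated lung 1 was higher, Siglech (0.47 ± 0.17), and 1 lower, Bcl11a (-1.81 ± 0.29). In treated marrow 1 was higher, Ccr9 (0.74 ± 0.38), which was not well above background on any mock marrow array. The sum of the 6 markers was 14.75 to 14.82 in treated lung and 14.29 to 14.54 in mock lung, and 13.30 to 13.72 in treated marrow and 13.18 to 13.63 in mock marrow. Siglech made up most of this sum, with a mean level of 14.69 in treated lung against 10.36 for Tcf4, the next marker there. Of 5 neutrophil markers tested 2 were higher in treated lung (12.87 to 13.96 in treated lung, 12.30 to 13.43 in mock lung) and none passed in marrow (16.76 to 17.21 in treated, 17.46 to 17.49 in mock cells). Of the 8 monocyte markers 2 were higher and 3 lower in treated lung, and 1 was higher and 4 lower in treated marrow. The part of these cells in the results was not tested.

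On the array the probes of Ifit1, Ifit2 and Ifit3 lie within a cluster on chromosome 19. Their mm9 positions, as the scanner files give them, are chr19:34723796-34723855, chr19:34650244-34650303 and chr19:34663105-34663164, on the plus strand. The probe of Isg15 used here lies at chr4:155573649-155573708 and the probe of Rsad2 at chr12:27127859-27127918, both on the minus strand. Ifi44 was measured at chr3:151394035-151394094 on the minus strand and Usp18 at chr6:121220874-121220933 on the plus strand. Mx1 (chr16:97668644-97668703, minus), Mx2 (chr16:97782327-97782386, plus) and Rtp4 (chr16:23613668-23613727, plus) lie on chromosome 16. Exons and UTRs under the probes were not analysed here.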

How the data were processed

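RNA of sorted M-MDSCs was measured on 6 dual-colour Agilent arrays, 3 of lung and 3 of bone marrow, with about 400 ng of RNA per cDNA synthesis per the labels' protocols. Per the file headers, the authors deposited scanner output of Agilent Feature Extraction 10.7.3.1, with an intensity for each spot and for the background around it. The deposited matrices hold log2 ratios per spot, made with limma per the submitters' processing notes, with settings not given in the sources used here.

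Log2 ratios were computed with limma 3.58.1 (R 4.3.3) from mean signals and median local backgrounds by normexp with an offset of 50 and loess within arrays, with control spots at weight 0. Controls and spots with an outlier mark were left out, and spots of a probe were averaged. A probe stayed if 2 or more arrays of any 1 tissue and channel had it well above background (27695 of 39429), with the brightest probe per gene, giving 22097 genes. Names were updated through RefSeq accession for 26581 probes, symbol for 2597 and synonym for 492, and 9759 kept the file's name. The fit had 1 mean per tissue over all 6 arrays and moderated variances (residual df 4, prior df 3.52). Its two-sided adjusted p-values have a threshold of 0.05, which is what "passed" refers to. Each gene's spread is thus shared between tissues. Errors are SDs between arrays. Channel levels were taken after Aquantile between arrays. A list's summed level is the log2 of its markers' summed intensities. The members and lists were chosen with earlier results of these data known. Every member is named, and at most 3 genes with the smallest p per list and tissue. Gm9706 and the other genes of like pattern are the 8 with the highest correlation. Replicate numbers were taken from the labels. Alternatives changed the background correction, the signal used, the normalization, the filter, the probe choice, the pooling of the spread, the blocks and the arrays left out. The fit was tested on simulated data.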

Additional observations from a re-analysis of the deposited data

Results flagged for a closer look

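The response to treatment differed between lung and marrow for Ifit2, with a difference in log2 ratio, lung minus marrow, of -0.92 (limma adjusted p = 0.0325). Its ratios were -1.44, -0.62 and -0.75 in lung, against -0.11, -0.18 and 0.25 in marrow. It differed for Ifi44 as well, by -0.80 (limma adjusted p = 0.0458), with ratios of -0.73, -0.81 and -1.51 in lung, against -0.05, -0.44 and -0.16 in marrow. Ifi44 was dim in marrow, where its signals above local background were 33.4 to 53.7 units in treated and 64.0 to 79.6 in mock cells. Negative control spots had medians of 5.7 to 7.5 and 37.3 to 41.0 units there. After correction their Cy5 median was 290.3 units on marrow replicate 1, where the ratio of Ifi44 was -0.05. With processed signals its marrow ratio was -0.48 and the difference -1.02. The part of the dim signal in the difference was not tested. Tissue and slide cannot be told apart for either gene. Neither call held under every setting tried. For Ifit2 the limma adjusted p was 0.0749, 0.0772 and 0.0901 without marrow replicate 1, 2 and 3, and 0.429 with median centring. Ifi44 was called with all 6 arrays and, of the fits that leave out 1 array, without lung replicate 1 alone. Its limma adjusted p was 0.0691 with a normexp offset of 16, 0.124 with processed signals and 0.533 with median centring, and between 0.0506 and 0.0542 with the deposited matrix, scaling between arrays, no filter or a replicate block across tissues. The differences stayed below 0 in each of these.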

How the results depend on the processing

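With 3 arrays per tissue, the lung result kept its count of 9 lower genes under every alternative but median centring, which gave 1, while its median was between -1.106 and -0.702 when arrays were left out in turn. The marrow count of 4 was 0 with median centring and 2 with no replicate block between channels, and between 1 and 6 when arrays were left out. The marrow median was -0.045 with median centring, and between -0.42 and -0.299 when arrays were left out. The count of 2 genes whose response differed between tissues was 1 with a normexp offset of 16, with processed signals, with the deposited matrix, with scaling between arrays, with no filter and with the replicate number as a block across tissues, 0 with median centring, and between 0 and 3 when arrays were left out. The genes differing between tissues numbered 8 to 9 in mock cells and 5 to 8 in treated cells when arrays were left out. Over all genes, median centring gave 891 higher and 73 lower in lung (4410 and 3100 with loess) and 0 in marrow (1603 and 1577 with loess), where 3951 had an unadjusted p below 0.05. Under it 7 of the 10 genes had an unadjusted p below 0.05 in lung and 1 in marrow, where the smallest limma adjusted p was 0.277. Signs turned in marrow for Ifit2 (0.0085 with no background correction, 0.0098 with negative control spots, 0.288 with median centring, and between -0.144 and 0.0743 when arrays were left out, being above 0 without marrow replicate 1 or 2), and with median centring for Isg15 (0.0388), Mx1 (0.182) and Ifit1 (0.0036). The Rtp4 difference between tissues was -0.119 with median centring, Mx1 in mock cells was between -0.0204 and 0.256 when arrays were left out, lowest without marrow replicate 3, and Rsad2 in lung was between -0.450 and 0.0172, highest without lung replicate 1. The cause was not tested. Same-numbered lung and marrow arrays deviated together with correlations of 0, 0.116 and 0.047. With 3 arrays per tissue, these values cannot tell whether the numbers pair the samples. With the replicate block Usp18 in marrow, Ifi44 in the response between tissues, Rtp4 between tissues in mock cells and Mx2 between tissues in treated cells did not pass, with limma adjusted p of 0.0653, 0.0542, 0.0658 and 0.0671. Of the 190 member values recomputed for lung under 19 settings, 181 kept direction and side of the threshold, and of those for marrow 162. Changes of the filter, the probe choice, the pooling of the spread or the blocks left these ratios the same. Leaving out an array of the other tissue did so too. In those settings only the side of the threshold could change, so these counts overstate how well direction was tested. Where signals lie near background, the offset draws ratios towards 0, which limits what the dim spots can show.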
